A study of Mus musculus with 9 samples.

Results

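The genes described here encode the proteasome and the proteins that build or regulate it. They are the 48 protein-coding genes, of 23944 genes in the deposited tables, whose symbols begin with Psma to Psmg followed by a number, leaving out the immune subunits Psmb8 and Psmb9. The symbol rule also takes in Psmc3ip, a meiotic recombination factor that is no proteasome part, so 47 of the 48 are subunits or close cofactors. One pseudogene, Psmb7-ps2, matched the symbols and was not counted.

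The RNA came from whole left lungs of wild type adult mice, in 3 groups of 3 libraries. Naive lungs were those of C57BL/6 mice with no transplant. Cold-ischemia grafts were C57BL/6 lungs kept at 0 °C for 24 hours, placed into Balb/C recipients and reperfused for 2 hours. Shock grafts had the same 24 hours of cold storage and 2 hours of reperfusion, after the donor had spent 4 hours in hypovolemic shock, at a mean arterial pressure of 15 ± 5 mmHg, and 20 hours in recovery. A graft holds donor lung tissue and any blood cells of the Balb/C host that entered it, and neither a naive Balb/C lung nor a graft without cold storage is among the libraries.

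The proteasome is the large protease that breaks down proteins tagged with ubiquitin. Its barrel, the core particle, is made of alpha rings and beta rings, and 3 of the beta subunits cut peptide bonds. A regulatory particle caps the barrel, with a ring of ATPases that unfold the substrate and non-ATPase subunits that bind ubiquitin and remove it. Dedicated chaperones build both particles, and other caps and inhibitors can take the place of the regulatory particle. When proteasome activity falls short in cultured cells, the transcription factor NRF1 (gene Nfe2l1) is known to raise proteasome genes together.

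Total counts per library ran from 18913487 to 34986276, and the lung genes Sftpc, Scgb1a1 and Ager together made up 21325 to 39158 CPM (reads scaled by library size, with TMM factors) in every library. The members took 0.283 to 0.285% of all reads in naive lungs and 0.268 to 0.309% in 5 grafts, against 0.374% in shock graft 2. A pair of grafts, cold-ischemia graft 2 and shock graft 1, was low at short genes: for genes up to 1000 bases long their median log2 CPM was below the naive mean by -0.54 and -0.46, and for genes over 5000 bases above it by 0.21 and 0.17. In the other 4 grafts these medians ran from -0.04 to 0.07. The sample titles place cold-ischemia graft 2 and shock graft 3 in those groups, whereas the authors' deposited tables list each of them in the opposite graft group. The titles were followed. The 6 grafts compared with naive lungs are the same under either grouping, but the spread estimate is not: under the grouping of the tables, Psmc4 was also called, so that 22 members rose and 2 fell in grafts, and 23.6% of all genes rose and 22.7% fell. The naive libraries carry labels that point to records made for another submission, so a batch difference and the difference between grafts and naive lungs cannot be told apart. The labels name no animals, so p-values measure the spread between these libraries.

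RNA of 13 of the 17 regulatory particle genes rose in grafts, a count that was 6 with upper quartiles, 5 with library totals and 6 without naive replicate 1. In these settings 17%, 14.6% and 17.3% of all genes rose, in that order. Of the 47 members tested, 21 rose and 2 fell in the 6 grafts, and 24 did not pass the test (edgeR quasi-likelihood test, adjusted p under 0.05 over 15834 genes). Over all genes tested, 22.1% rose and 19.7% fell. The largest rises were those of Psmd11, Psmd12 and Psmd8, all non-ATPase subunits of the regulatory particle. Both genes that fell, Psmg2 and Psmd5, encode assembly chaperones. The 6 grafts stood wholly above the 3 naive lungs at 21 members and wholly below at 2, where over all genes 20.9% stood above and 20% below. The 21 above were 20 of the members that rose and Psmc4, while Psma6 rose with groups that overlapped through naive replicate 1 and cold-ischemia graft 2. The median log2 fold change of the members was 0.30, and that of all genes tested was -0.05. The number of cells of a type and the amount of RNA per cell cannot be told apart in these whole-lung libraries.

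The scale of the libraries bears on these counts. With upper-quartile scaling the median of all genes moved to -0.25 and 10 members rose and 3 fell (17% and 31.8% of all genes), while with library totals as the scale it moved to -0.37 and 8 rose and 5 fell (14.6% and 39.6% of all genes). The share of higher genes among all called genes was 52.8% in the reported fit, 34.8% with upper quartiles and 26.9% with totals. With totals the members' median was -0.02. A change of scale shifts all genes nearly alike, so the distance of 0.35 between the members' median and that of all genes stays the same by construction. Psmd11, Psmd12, Psmd8, Psmd1, Psmc6, Psme3, Psme4 and Psmg1 were called higher under every scaling, and Psmg2 and Psmd5 lower.

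**Figure D1:**
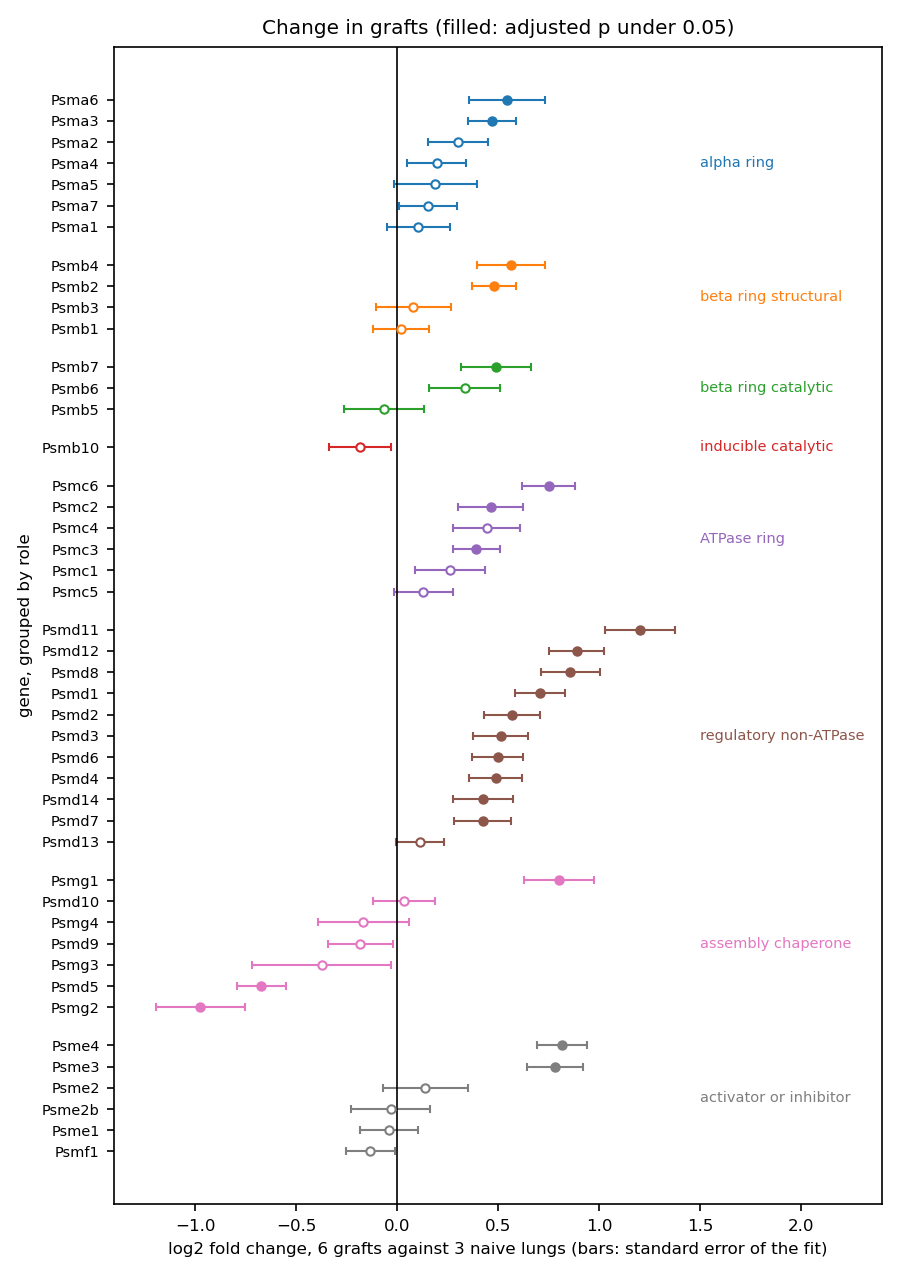
Log2 fold change of 6 grafts against 3 naive lungs (x axis) for proteasome genes grouped by role (y axis), with the standard error derived from the edgeR test as bars and filled points for adjusted p under 0.05. Of the 11 regulatory non-ATPase genes 10 are filled and lie to the right, and Psmg2 and Psmd5 are the filled points to the left. Of all genes tested, 22.1% rose and 19.7% fell.

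The non-ATPase subunits of the regulatory particle moved most often: 10 of 11 rose, with a median log2 fold change of 0.51. Of all genes tested, 22.1% rose. Psmd3, Psmd4, Psmd6, Psmd7 and Psmd14 lost the call with upper quartiles and with library totals, and Psmd2 lost it with library totals. In these settings 17% and 14.6% of all genes rose, in that order. Psmd11, a subunit of the lid that clamps the regulatory particle to the core, was measured at 60.8, 57.7 and 68.4 CPM in naive lungs. It reached 139, 151 and 99.7 CPM in cold-ischemia grafts and 153, 192 and 131 CPM in shock grafts. Every graft was thus above every naive lung, and the lowest graft was cold-ischemia graft 3. Its log2 fold change was 1.20 ± 0.17 (SE; 2.30-fold, edgeR adjusted p = 0.000305, higher in 6 of 6 grafts).

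Psmd12, another lid subunit, stood at 36.9, 39.8 and 46.0 CPM in naive lungs, at 73.6, 69.1 and 67.6 CPM in cold-ischemia grafts and at 80.6, 96.4 and 68.6 CPM in shock grafts. The groups did not overlap, and the fold change was 0.89 ± 0.14 on the log2 scale (edgeR adjusted p = 0.000463). Psmd8, a lid subunit that joins late in assembly, had 73.9, 82.6 and 79.4 CPM in naive lungs, 134, 127 and 134 CPM in cold-ischemia grafts and 156, 189 and 118 CPM in shock grafts. All grafts were again above all naive lungs, shock graft 2 highest, with a log2 fold change of 0.86 ± 0.15 (edgeR adjusted p = 0.000981).

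The 4 promoter windows below, from RefSeq on GRCm38.p6, are shown for the 3 members that rose most and for Psmd5, which fell; each holds the 250 bases before the start of the gene, in the direction of transcription. Capitals mark the letters TGACNNNGC, the pattern of the antioxidant response element (ARE) that NRF1 and its relatives bind, or CCGGAAG, the pattern of ETS family factors, on either strand. Psmd11 lies at chr11:80428365-80428614 on the plus strand and Psmd12 at chr11:107479278-107479527 on the plus strand. The window of Psmd8 is chr7:29180674-29180923 on the minus strand and that of Psmd5 is chr2:34870963-34871212 on the minus strand. In the deposited tables, on mm10, Psmd11 spans chr11:80428615-80473248, Psmd12 chr11:107479484-107504362, Psmd8 chr7:29174188-29180701 and Psmd5 chr2:34852088-34874968, so the windows of Psmd12 and Psmd8 reach into the deposited gene. The window of Psmd5 lies wholly inside the deposited gene, since its RefSeq start lies within it.
Psmd11: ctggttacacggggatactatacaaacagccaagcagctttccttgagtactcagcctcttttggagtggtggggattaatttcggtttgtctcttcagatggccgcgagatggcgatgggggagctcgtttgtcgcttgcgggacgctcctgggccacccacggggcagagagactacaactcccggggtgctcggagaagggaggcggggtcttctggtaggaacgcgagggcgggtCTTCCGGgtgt
Psmd12: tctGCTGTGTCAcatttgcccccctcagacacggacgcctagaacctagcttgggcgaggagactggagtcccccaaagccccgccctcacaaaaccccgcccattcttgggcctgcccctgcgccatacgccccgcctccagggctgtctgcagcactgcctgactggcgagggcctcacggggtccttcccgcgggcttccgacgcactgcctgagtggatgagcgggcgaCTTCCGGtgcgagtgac
Psmd8: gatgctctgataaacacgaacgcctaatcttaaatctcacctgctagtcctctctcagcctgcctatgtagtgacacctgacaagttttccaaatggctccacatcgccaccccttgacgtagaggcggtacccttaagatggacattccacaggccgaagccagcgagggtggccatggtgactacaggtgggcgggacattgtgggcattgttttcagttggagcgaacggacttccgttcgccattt
Psmd5: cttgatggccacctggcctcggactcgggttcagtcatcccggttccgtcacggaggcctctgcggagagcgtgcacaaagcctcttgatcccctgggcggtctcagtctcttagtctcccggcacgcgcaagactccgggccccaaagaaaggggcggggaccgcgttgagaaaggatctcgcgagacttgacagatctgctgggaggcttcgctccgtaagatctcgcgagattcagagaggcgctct
The ETS letters begin 11 bases before the start in Psmd11 and 17 bases before it in Psmd12, in both on the opposite strand. The ARE letters occur once among these windows, beginning 247 bases before the start of Psmd12. No match was found in the windows of Psmd8 and Psmd5.

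Of the 48 members, 40 had a promoter window in the RefSeq table. The ARE letters were present in 5 of the 40 (12.5%) and in 11.5% of the 27025 genes with a window, and in 2 of the 16 members that rose. Among tested genes with a window, they stood in 15.0% of those that rose, 13.5% of those that fell and 13.6% of the rest. The CCAAT letters, the pattern of a common promoter box bound by NF-Y, were found in 35.0% of members and 37.5% of all genes, and the heat shock pair GAANNTTC in 5.0% and 7.73%. Among tested genes that rose, fell or did neither, CCAAT stood in 38.3%, 42.3% and 38.8%, and GAANNTTC in 6.18%, 5.82% and 6.28%. The ETS letters were present in 13 of 40 members (32.5%), against 7.83% of all genes with a window. They occurred in 11 of the 16 members that rose and in 2 of the 22 tested members that did not pass the test. Over all genes tested that had a window, the ETS letters stood in 13.6% of those that rose, 14.2% of those that fell and 13.8% of the rest. The ETS pattern was chosen after the 4 printed windows had been read; without those 4 genes it was present in 9 of 13 members that rose and in 11 of 36 members in all. The ARE, CCAAT and ETS patterns were counted on both strands, and GAANNTTC reads the same on both. A match describes letters only, not a bound site.

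**Figure D2:**
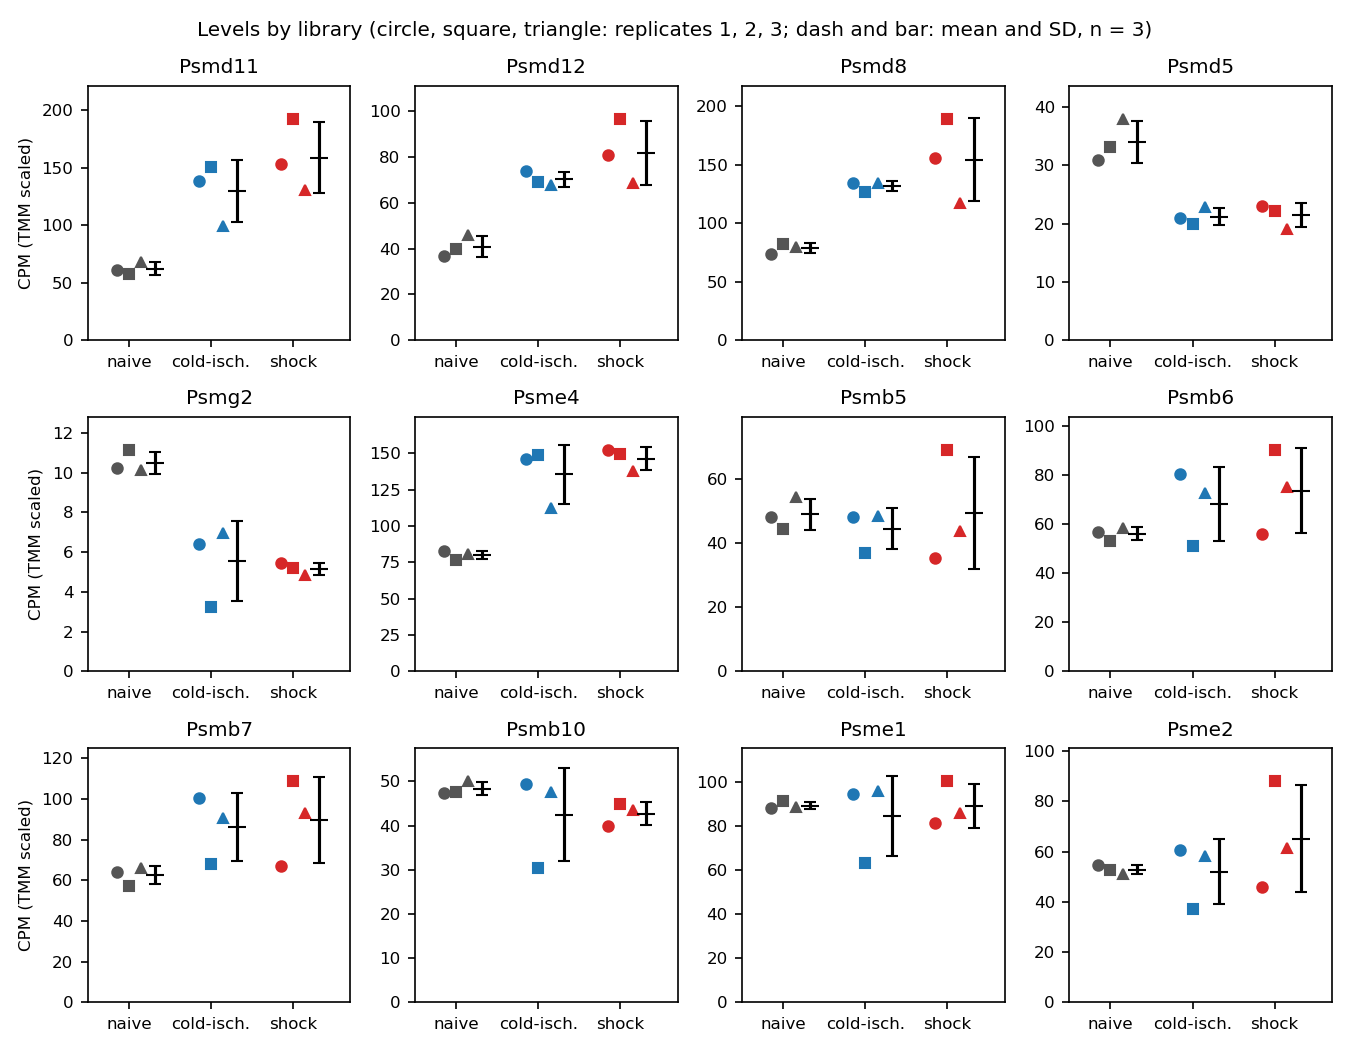
CPM on the TMM scale (y axis, from 0) in each library of the 3 groups (x axis) for 12 members, with replicate 1 as a circle, replicate 2 as a square and replicate 3 as a triangle, and the group mean ± SD (n = 3) beside them. Psmd11, Psmd12, Psmd8 and Psme4 lie higher in all 6 grafts than in any naive lung, Psmd5 and Psmg2 lie lower, and the groups overlap for Psmb5, Psmb6, Psmb10, Psme1 and Psme2.

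Among the other non-ATPase subunits, Psmd1 and Psmd2, the scaffolds at the base of the particle, rose by 0.71 ± 0.12 and 0.57 ± 0.14 on the log2 scale (edgeR adjusted p = 0.00106 and 0.00805). Psmd2 was the most abundant member in reads, at 144 ± 5.02 CPM in naive lungs (SD, n = 3) and 214 ± 35.0 CPM in grafts (SD, n = 6). Psmd4, a ubiquitin receptor, rose by 0.49 ± 0.13, and Psmd14, the enzyme that removes ubiquitin chains at the lid, by 0.43 ± 0.15 (edgeR adjusted p = 0.0124 and 0.0402). The lid subunits Psmd3, Psmd6 and Psmd7 rose by 0.51 ± 0.14, 0.50 ± 0.13 and 0.42 ± 0.14 on the same scale (edgeR adjusted p = 0.0127, 0.00897 and 0.0321). Psmd13, the remaining lid subunit, did not pass, with 59.4 ± 2.45 CPM in naive lungs, 64.2 ± 7.17 CPM in grafts and a 95% interval of -0.15 to 0.38 for its log2 fold change.

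In the ATPase ring, which unfolds substrates and opens the gate of the core, 3 of 6 genes rose and the median log2 fold change was 0.42. Psmc6 rose by 0.75 ± 0.13 on the log2 scale (edgeR adjusted p = 0.001), from 49.4, 49.5 and 55.0 CPM in naive lungs to 75.3 to 105 CPM in grafts. Psmc2 and Psmc3 rose by 0.46 ± 0.16 and 0.39 ± 0.12 (edgeR adjusted p = 0.04 and 0.0197), and both lost the call with upper quartiles and with library totals. Psmc4 missed the threshold, at a log2 fold change of 0.44 ± 0.17 with an edgeR adjusted p of 0.0527, although all 6 grafts lay above all naive lungs. Psmc1 and Psmc5 had log2 fold changes of 0.26 ± 0.17 and 0.13 ± 0.15 with overlapping groups. In the regulatory particle as a whole, 13 of 17 genes rose, none fell and the median was 0.49. Beside these counts, 22.1% of all genes tested rose and 19.7% fell.

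**Figure D3:**
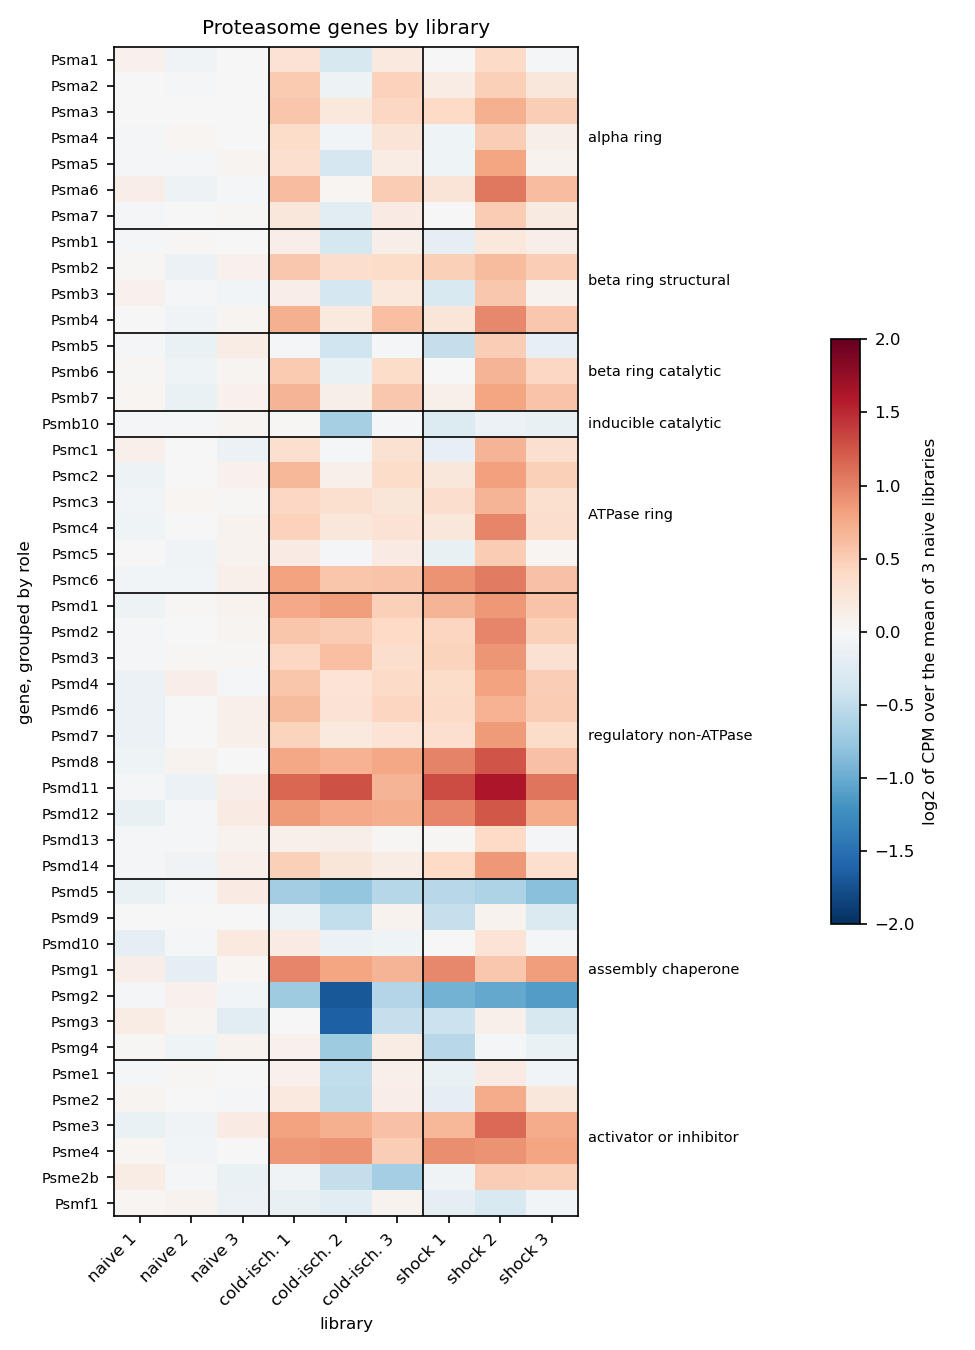
Log2 of the CPM in each library over the mean of the 3 naive libraries (colour, red higher and blue lower) for 45 tested proteasome genes grouped by role (y axis) in 9 libraries (x axis). Most regulatory particle rows are red in the grafts, darkest in shock graft 2, and many core particle rows are pale or blue in cold-ischemia graft 2 and shock graft 1, and Psmd5 and Psmg2 are blue in all 6 grafts; the low-level Psma8 and the non-subunit Psmc3ip are left out.

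In the core particle 5 of 14 genes rose and none fell, with a median log2 fold change of 0.25. The count of rises was 1 with upper-quartile scaling, 0 with library totals and 2 without any 1 of the naive libraries. Over all genes, 22.1% rose in the reported fit, 17% with upper quartiles and 14.6% with library totals. Without 1 naive library 16.8% to 18.9% of all genes rose. The alpha ring forms the gate of the barrel, and of its 7 genes Psma3 and Psma6 rose, by 0.47 ± 0.12 and 0.54 ± 0.19 on the log2 scale (edgeR adjusted p = 0.00872 and 0.0378). The other alpha genes, Psma1, Psma2, Psma4, Psma5 and Psma7, had log2 fold changes from 0.11 to 0.30. Of the 4 beta subunits that do not cut, Psmb2 and Psmb4 rose by 0.48 ± 0.11 and 0.57 ± 0.17 (edgeR adjusted p = 0.00541 and 0.0201), and Psmb1 and Psmb3 had values of 0.02 ± 0.14 and 0.08 ± 0.19.

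Of the 3 cutting subunits, 1 rose, where 22.1% of all genes rose. Psmb7, which cuts after basic residues, had 64.2, 57.4 and 66.2 CPM in naive lungs, 100.3, 68.0 and 90.6 CPM in cold-ischemia grafts and 66.8, 108.7 and 92.9 CPM in shock grafts. Its lowest grafts, cold-ischemia graft 2 and shock graft 1, were only just above the highest naive lung, and the log2 fold change was 0.49 ± 0.17 (edgeR adjusted p = 0.0422). Psmb6, which cuts after acidic residues, had 57.1, 53.2 and 58.4 CPM in naive lungs, 80.6, 51.4 and 72.6 CPM in cold-ischemia grafts and 55.9, 90.3 and 75.1 CPM in shock grafts. The groups overlapped through cold-ischemia graft 2 and shock graft 1, and the value of 0.33 ± 0.18 did not pass (edgeR adjusted p = 0.154).

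Psmb5, which cuts after hydrophobic residues and is the target of bortezomib, had 48.2, 44.6 and 54.3 CPM in naive lungs, 48.1, 37.1 and 48.4 CPM in cold-ischemia grafts and 35.3, 69.1 and 43.8 CPM in shock grafts. The grafts lay on both sides of the naive lungs, with shock graft 2 highest and shock graft 1 lowest. Its log2 fold change was -0.06 with a 95% interval of -0.50 to 0.37 (edgeR adjusted p = 0.816). Psmb10, the interferon-inducible subunit that takes the place of Psmb7 in the immunoproteasome, had 47.4, 47.6 and 50.02 CPM in naive lungs, 49.4, 30.4 and 47.5 CPM in cold-ischemia grafts and 39.8, 44.8 and 43.4 CPM in shock grafts. Cold-ischemia graft 2 was lowest, and the log2 fold change of -0.18 ± 0.15 did not pass (edgeR adjusted p = 0.355), although Psmb10 was called lower, at -0.51, with library totals as the scale. All shock grafts lay below all naive lungs at Psmb10, as at 4303 of 15834 genes tested.

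The core genes are shorter, with a median length of 1162.5 bases against 1883 bases for the regulatory genes in the deposited tables. Cold-ischemia graft 2 was the lowest of the 6 grafts at 11 of 14 core genes, and shock graft 1 at the other 3. Without those 2 libraries 7 core and 14 regulatory genes rose, where 20% of all genes rose. With a trend on gene length taken out of every library 8 core and 14 regulatory genes rose, where 22.7% of all genes rose. Under the length trend Psmb6 rose by 0.45 ± 0.11 (edgeR adjusted p = 0.00693). Psmb5 did not pass, at 0.06 ± 0.15 (edgeR adjusted p = 0.754) against -0.06 in the reported fit. Under the same trend Psma2 and Psma4 rose by 0.43 ± 0.09 and 0.29 ± 0.10 (edgeR adjusted p = 0.00411 and 0.0378). Both alternatives were chosen after seeing the data.

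The summed CPM of the 17 regulatory genes divided by that of the 14 core genes was 1.34, 1.45 and 1.43 in naive lungs. It was 1.56, 2.02 and 1.48 in cold-ischemia grafts and 1.89, 1.71 and 1.57 in shock grafts. All 6 grafts were above the naive lungs, and the highest ratios were those of the 2 libraries low at short genes. Among the other 4 grafts the ratio ran from 1.48 to 1.71. This ratio was given no test, since the genes summed were chosen with results known.

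**Figure D4:**
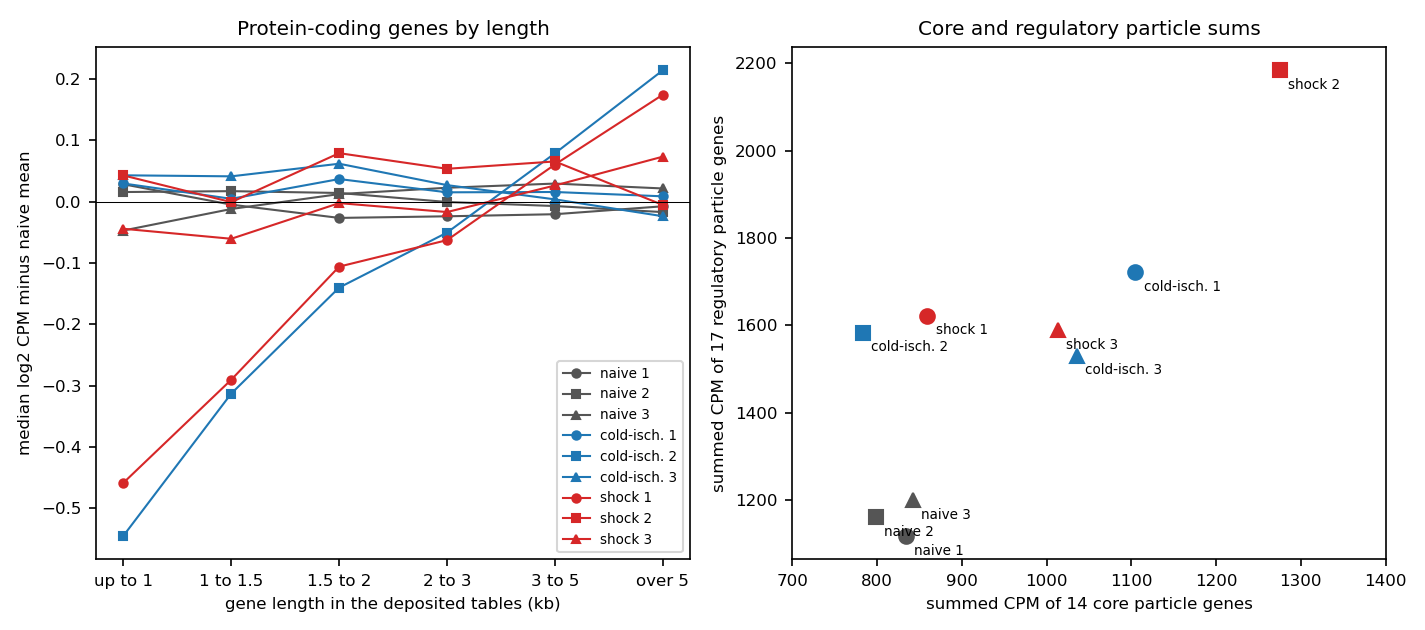
Left, median log2 CPM minus the naive mean (y axis) over protein-coding genes in bins of gene length (x axis, kb) for each library; right, summed CPM of 17 regulatory genes (y axis) against summed CPM of 14 core genes (x axis) for each library. Cold-ischemia graft 2 and shock graft 1 bend down to -0.54 and -0.46 at short genes, and all 6 grafts lie above the naive lungs on the regulatory axis.

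The assembly chaperones split in direction: 1 of 7 rose and 2 fell, where 22.1% of all genes rose and 19.7% fell. Psmg1 and Psmg2 form a pair that guides the building of the alpha ring. Psmg1 rose by 0.80 ± 0.17 on the log2 scale (edgeR adjusted p = 0.00367), from 5.78, 4.57 and 5.41 CPM in naive lungs to 7.67 to 10.3 CPM in grafts. Psmg2 had 10.2, 11.1 and 10.1 CPM in naive lungs, 6.39, 3.24 and 6.97 CPM in cold-ischemia grafts and 5.44, 5.18 and 4.83 CPM in shock grafts. All grafts were below all naive lungs, cold-ischemia graft 2 lowest, and Psmg2 fell by 0.97 on the log2 scale (SE 0.22, edgeR adjusted p = 0.00487).

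Psmd5, a chaperone of the ATPase ring, had 30.9, 33.2 and 37.9 CPM in naive lungs, 21.04, 19.9 and 22.8 CPM in cold-ischemia grafts and 23.1, 22.1 and 19.2 CPM in shock grafts. The grafts lay close together and all below the naive lungs, and Psmd5 fell by 0.67 on the log2 scale (SE 0.12, edgeR adjusted p = 0.00129). Psmd5 overlaps Cutal on the opposite strand, which had 1609 reads over all libraries against 6177 for Psmd5. Psmd9 and Psmd10, the other chaperones of the ATPase ring, had log2 fold changes of -0.18 ± 0.16 and 0.04 ± 0.15, and Psmg3 and Psmg4, which also act on the alpha ring, had -0.37 ± 0.34 and -0.17 ± 0.22. None of these 4 passed the test, and the groups of each overlapped.

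Among the alternative caps and regulators, Psme3 and Psme4 rose and the other 4 did not pass. Of all genes tested, 22.1% rose and 19.7% fell. Psme3, the nuclear cap PA28 gamma, rose by 0.78 ± 0.14 on the log2 scale, from 58.8 ± 6.51 CPM in naive lungs (SD, n = 3) to 101 ± 14.6 CPM in grafts (SD, n = 6; edgeR adjusted p = 0.00117). Psme4, the large single-chain cap known for its role in the degradation of acetylated histones, rose by 0.82 ± 0.12, from 79.9 ± 2.82 to 141 ± 15.0 CPM (edgeR adjusted p = 0.000407). Psme1 and Psme2 together form the interferon-inducible cap. Psme1 had 88.3, 91.4 and 88.7 CPM in naive lungs, 94.6, 63.6 and 96.03 CPM in cold-ischemia grafts and 81.5, 100.5 and 86.1 CPM in shock grafts, with a log2 fold change of -0.04 (95% interval -0.36 to 0.28, edgeR adjusted p = 0.845). Psme2 had 54.8, 52.7 and 51.2 CPM in naive lungs, 60.7, 37.3 and 58.3 CPM in cold-ischemia grafts and 45.9, 88.1 and 61.6 CPM in shock grafts, with a value of 0.14 (95% interval -0.32 to 0.60, edgeR adjusted p = 0.621). For both genes the grafts lay on both sides of the naive lungs. Psme2b, a near copy of Psme2 whose reads may be shared with it, and Psmf1, a protein that inhibits the core particle in the test tube, had log2 fold changes of -0.03 ± 0.20 and -0.13 ± 0.12.

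The tissue-restricted members had few or no reads. Psma8, the testis alpha subunit, had 0.14 to 0.98 CPM in all libraries and did not pass the test. Psmb11, the thymus subunit, failed the filter on low counts and had at most 0.21 CPM in any library. Psmc3ip had 2.60 ± 0.15 CPM in naive lungs (SD, n = 3) and 2.51 ± 0.31 CPM in grafts (SD, n = 6).

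Levels of different genes were compared per length, on the deposited FPKM scale, which divides by gene length and library total. In naive lungs Psmb1, a structural beta subunit, was highest at 96.6 ± 2.36 FPKM (SD, n = 3), followed by Psma2 at 77.4 ± 1.99 FPKM and Psmc1 at 74.0 ± 7.21 FPKM; Psma2 and Psmc1 did not differ beyond their spread. Psmd8 stood 11th of the 48 members in naive lungs, at 59.2 ± 3.07 FPKM, and had the highest mean in grafts, at 86.0 ± 14.5 FPKM (SD, n = 6), which did not differ from Psmb4, at 83.5 ± 16.3 FPKM, beyond their spread. Psmd11 moved from the 32nd place, at 24.3 ± 1.66 FPKM, to the 18th, at 44.8 ± 8.85 FPKM. The 7 chaperones had lower naive means than each core and regulatory gene, with naive means from 0.74 FPKM for Psmg3 to 11.6 FPKM for Psmd5. On this scale, which uses library totals, Psmb10 had 44.2 ± 0.36 FPKM in naive lungs and 31.1 ± 5.02 FPKM in grafts. On the TMM scale Psmb10 had 48.3 ± 1.45 CPM in naive lungs and 42.6 ± 6.82 CPM in grafts.

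**Figure D5:**
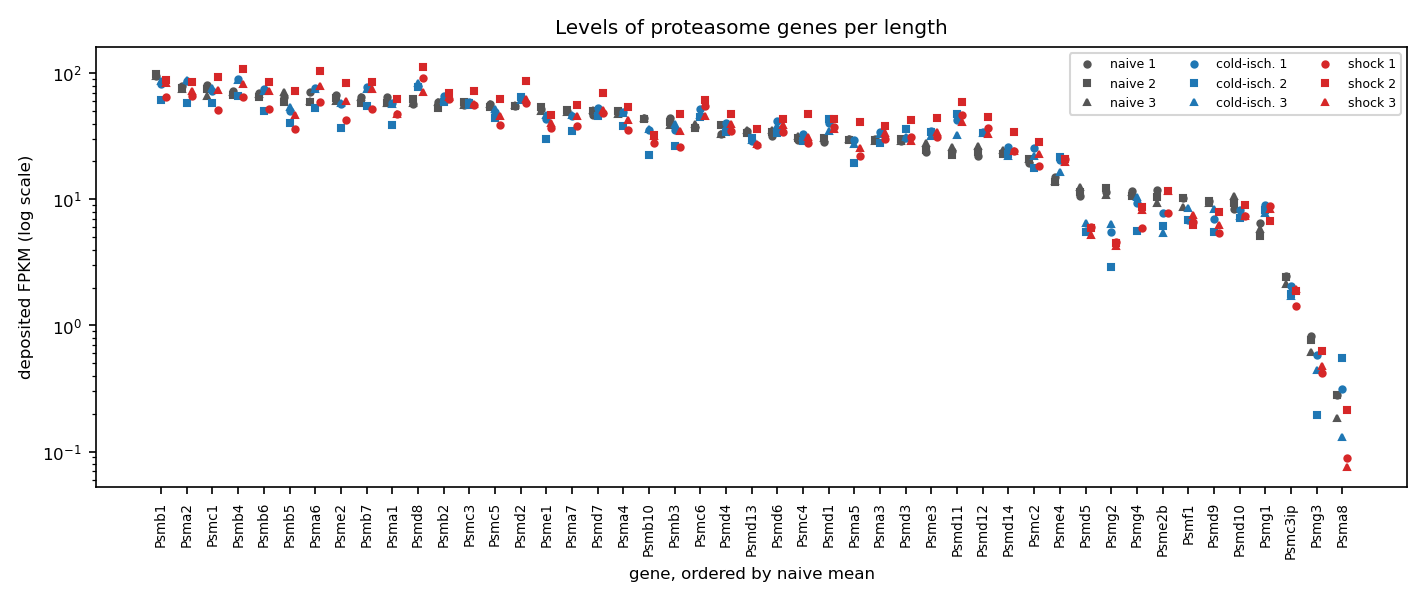
Deposited FPKM on a log scale (y axis) for 47 members ordered by their naive mean (x axis), with 1 point per library (grey naive, blue cold-ischemia, red shock; circle, square and triangle for replicates 1, 2 and 3). Core and regulatory genes lie to the left, from Psmb1 at a naive mean of 96.6 FPKM to Psmc2 at 20.5 FPKM, the 7 chaperones lie lower, from 11.6 FPKM for Psmd5 down, and Psmb11, listed at 0 in naive lungs, is left out.

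Each graft group was also set against naive lungs alone. Against naive lungs 13 members rose and 2 fell in cold-ischemia grafts, where 17.5% of all genes rose and 13.1% fell, and 21 rose and 2 fell in shock grafts, where 22% rose and 17.9% fell. These comparisons share the naive libraries. In cold-ischemia grafts 2 core and 8 regulatory genes rose, and in shock grafts 4 core and 14 regulatory genes rose. With the grouping of the deposited tables the edgeR fit gave 17 rises and 2 falls in cold-ischemia grafts, with 4 core and 10 regulatory genes higher, where 19.3% of all genes rose. It gave 19 rises and 2 falls in shock grafts, with 3 core and 13 regulatory genes higher, where 23.8% of all genes rose. Psmd11 had log2 fold changes of 1.06 ± 0.19 in cold-ischemia grafts and 1.35 ± 0.19 in shock grafts (edgeR adjusted p = 0.00191 and 0.00035), and Psmg2 had -0.92 ± 0.26 and -1.02 ± 0.26 (edgeR adjusted p = 0.0217 and 0.0108). The authors' deposited table gave 24 members as higher and 2 as lower in cold-ischemia grafts at their adjusted p under 0.05, and 17 higher and 2 lower in shock grafts, with cold-ischemia graft 2 and shock graft 3 in the opposite groups. Over all genes with an adjusted p in the authors' deposited table, 19.5% were higher and 16.7% lower in cold-ischemia grafts, and 20.7% and 16.6% in shock grafts.

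Between the graft groups no member passed, and of all genes tested 0% rose and 0% fell (edgeR quasi-likelihood test). At an unadjusted p under 0.05 there was 1 member, Psme2b, at a log2 fold change of 0.71 ± 0.23 (edgeR adjusted p = 0.671, chosen after its value was seen). Over all genes, 1152 had an unadjusted p under 0.05. DESeq2 called 0 members, with 7 genes higher and 1 lower in all, and the grouping of the deposited tables gave 0 members, with 36 genes higher and 88 lower. The member values ran with wide intervals: Psmd11 had 0.29 (95% interval -0.12 to 0.70), Psmb5 0.15 (-0.36 to 0.65) and Psme1 0.08 (-0.29 to 0.44). A p that misses the threshold does not show that the graft groups were alike.

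The spread among single grafts was wide. Shock graft 2 had the highest CPM of the 6 grafts at 37 of 47 members, at all 17 regulatory genes and at 13 of 14 core genes, against 26.9% of all genes tested. Cold-ischemia graft 2 had the lowest CPM at 24 of 47 members, against 15.8% of all genes. The median coefficient of variation of the members was 5.61% over the naive lungs and 16.6% over the 6 grafts. Without shock graft 2, 20 members rose and 2 fell in grafts, where 22.4% of all genes rose and 20.8% fell. Without it and both libraries low at short genes 24 rose and 2 fell, where 20.4% of all genes rose and 18.6% fell. In shock grafts alone, 14 rose and 2 fell without shock graft 2, where 19.9% of all genes rose and 15.7% fell.

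Naive libraries weighed on the counts as well. Without naive replicate 1, 11 members rose and 2 fell in grafts, where 17.3% of all genes rose and 14.6% fell. Of the 23 calls, 13 held with any 1 library left out: Psma3, Psmb2, Psmc6, Psmd1, Psmd2, Psmd8, Psmd11, Psmd12, Psme3, Psme4 and Psmg1 as higher, and Psmd5 and Psmg2 as lower. Psmd3, Psmd4 and Psmd6 lost the call without naive replicate 1 (edgeR adjusted p = 0.0624, 0.0704 and 0.0575). Psmb4 and Psmc3 lost it without any 1 of the naive libraries, with edgeR adjusted p up to 0.0833 and 0.0946. Psmd7 lost it also without cold-ischemia graft 1, Psmd14 also without cold-ischemia graft 1 or 2, and Psma6 also without cold-ischemia graft 1 or 3, with edgeR adjusted p up to 0.138, 0.143 and 0.137. Psmc2 lost it without any naive library, cold-ischemia graft 1 or 3 or shock graft 2, and Psmb7 without these or shock graft 3 (edgeR adjusted p up to 0.147 and 0.156). In cold-ischemia grafts 8 members rose and 1 fell without naive replicate 1, where 13.3% of all genes rose, and the same counts were found without naive replicate 2, where 12.9% rose. In shock grafts 12 rose and 2 fell without naive replicate 1, where 17.3% of all genes rose, and 13 rose and 2 fell without naive replicate 2, where 17% rose.

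Overlapping genes limit some members, since the labels do not state whether strand was kept. At 14 members the span of a gene on the opposite strand overlaps, and reads in a shared stretch cannot then be told apart. Whether exons are shared was not checked. Some partners had few reads, such as AY074887 beside Psma4, with 1 against 12219 over all libraries. The most read of these partners were Nek6 beside Psmb7, with 11684 reads against 17800 over all libraries, Slc39a13 beside Psmc3, with 6427 against 24405, and Mlx beside Psmc3ip, with 4079 against 584. Psme2b overlaps Gm12185, with 2072 reads, and 9930111J21Rik1, with 3164 reads, on its own strand, against 1741 reads of its own, so its value is uncertain for that reason too. Psmd11 and Psmd8, among the largest rises, overlap no gene of the tables.

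Other proteasome parts, with symbols outside the rule, rose at 4 of 10 genes and fell at none, with a median log2 fold change of 0.14. Over all genes tested, 22.1% rose and 19.7% fell. This list and those that follow were counted on the TMM scale only. Zfand5, a zinc finger protein that activates the proteasome, rose by 1.48 ± 0.14, and Txnl1, a redox protein bound to the regulatory particle, by 1.06 ± 0.11 (edgeR adjusted p = 1.97e-05 and 5.34e-05). Usp14, a deubiquitinating enzyme on the regulatory particle, rose by 0.71 ± 0.12, and Adrm1, its ubiquitin receptor, by 0.72 ± 0.18 (edgeR adjusted p = 0.00116 and 0.00819). The chaperone Pomp, which matures the core particle, was among the 6 that did not pass. In the list of the immunoproteasome and peptide supply 3 of 9 rose and 1 fell, with a median of 0.24, beside the same shares over all genes. Irf1, an interferon-response transcription factor, rose by 2.32 ± 0.18, and Tap1, a peptide transporter, by 1.28 ± 0.30 (edgeR adjusted p = 6.27e-06 and 0.00603). Nlrc5, an activator of class I genes, rose by 0.65 ± 0.21, and the inducible subunit Psmb9 fell by 0.60 on the log2 scale (edgeR adjusted p = 0.0307 and 0.0404).

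Genes of NRF1, its partners and its processing rose at 7 of 11 and fell at none, with a median log2 fold change of 0.65. The share that rose over all genes tested was 22.1%. The small Maf partners Maff, Mafk and Mafg rose by 4.08 ± 0.24, 2.19 ± 0.17 and 1.21 ± 0.13 (edgeR adjusted p = 1.18e-06, 5.86e-06 and 5.15e-05). Nfe2l2, the related stress factor NRF2, rose by 1.31 ± 0.13 (edgeR adjusted p = 2.71e-05). Nfe2l1 itself, named here after its value was seen, had 357, 345 and 375 CPM in naive lungs and 385 to 531 CPM in grafts. Its groups did not overlap, and its value of 0.32 ± 0.12 just missed the threshold (edgeR adjusted p = 0.0501).

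Of 5 shuttle factors, which carry ubiquitin-tagged proteins to the proteasome, 1 rose, Rad23b, by 0.79 ± 0.11 (edgeR adjusted p = 0.000328), and the median was -0.12. Over all genes tested 22.1% rose. Chaperones that meet damaged proteins rose at 7 of 8, with a median of 1.57. Sqstm1, an autophagy receptor, rose by 2.57 ± 0.26, Bag3, a co-chaperone, by 1.61 ± 0.18, Zfand2a, a stress-induced zinc finger protein, by 1.13 ± 0.14, and Hspa1a, an inducible heat shock protein, by 4.69 ± 0.74 (edgeR adjusted p = 3.19e-05, 5.77e-05, 0.00014 and 0.000561). Their summed level was 1075, 1431 and 2612 CPM in naive lungs and 4183 to 8401 CPM in grafts, with shock graft 2 highest.

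Markers of blood cells moved with the graft comparison. All 8 neutrophil markers rose, with a median log2 fold change of 5.17, and their summed level was 49.8 to 79.3 CPM in naive lungs, 974 to 1901 CPM in cold-ischemia grafts and 1473 to 2880 CPM in shock grafts, highest in shock graft 2. Ly6g, the defining surface marker of mouse neutrophils, was at 0.06 to 0.25 CPM in naive lungs. Of 5 macrophage markers 2 rose, and their summed level was 264 to 302 CPM in naive lungs and 297 to 455 CPM in grafts. All 3 B cell markers fell, with summed levels of 47.3 to 61.9 CPM in naive lungs and 17.3 to 32.7 CPM in grafts. Of 4 T cell markers 1 rose, of 5 alveolar type 2 markers none passed, and of 4 endothelial markers 1 rose and 1 fell. Over all genes tested 22.1% rose and 19.7% fell. The part of these cell types in the values of the proteasome genes was not tested.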

How the data were processed

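RNA of 9 whole left lungs was sequenced as paired reads on an Illumina NovaSeq, per the labels' protocols. The submitters' processing notes name STAR, HTSeq, DESeq2, edgeR and STAR-Fusion and the build mm10, without versions or roles; the annotation and strand setting are not given in the sources used here. The authors deposited 3 tables with raw read counts, FPKM, a normalized signal per library (not used here), log2 fold changes and p-values with adjusted p-values, per the file headers. Counts of the 3 tables were joined by gene identifier with 0 conflicts.

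Counts were tested with edgeR 4.0.16 in R 4.3.3 (TMM, filterByExpr, 1 quasi-likelihood fit over 9 libraries in 3 groups, 6 residual degrees of freedom, two-sided, Benjamini-Hochberg over 15834 genes, called under 0.05), after a test on simulated data. CPM values use the TMM scale. Alternatives were DESeq2 1.42.0, other scalings and filters, a length trend, other groupings, a replicate block and leaving out libraries. Members and gene lists were chosen with earlier results of these data known. Values in every library are given for the 3 largest rises, for the falls and for Psmb5, Psmb6, Psmb7, Psmb10, Psme1 and Psme2. Each list names at most 4 genes by the smallest adjusted p. Pomp and Nfe2l1, which did not pass, are named in addition. The list of ubiquitin genes and activating enzymes is not reported here.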

Additional observations from a re-analysis of the deposited data

How the results depend on the processing

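The count of called members in grafts against naive lungs, 23 in the reported fit, was 13 with upper-quartile scaling and 13 with library totals as the scale, and 13 to 24 with 1 library left out. With 1 library left out, 16.8% to 22.4% of all genes rose and 12.9% to 21.6% fell. In cold-ischemia grafts the count of called members was 15, with 9 under library totals and 9 to 19 with 1 library left out. Of all genes, 11.9% rose and 28.9% fell under library totals. With 1 library left out 12.9% to 19% rose and 7.96% to 15.8% fell. In shock grafts the count of called members was 23, with 12 under upper quartiles, 12 under library totals and 14 to 26 with 1 library left out. Of all genes, 16.9% rose and 29.4% fell under upper quartiles, and 14.7% and 36.4% under library totals. With 1 library left out 17% to 21.7% rose and 11.5% to 19.2% fell. Between the graft groups the count of called members was 0 under every setting run. With each replicate number as a block the counts of called members were 18, 11, 19 and 0 in the 4 comparisons. With the block, 20.4% of all genes rose and 18.2% fell in grafts. The shares were 15.7% and 11.4% in cold-ischemia grafts, 20.1% and 16.5% in shock grafts, and 0% and 0% between the graft groups. Same-numbered libraries correlated at -0.39 to 0.10 in their deviations. With 3 libraries a group, these values cannot show whether the numbers pair the libraries. Library totals, the length trend and the fits without 2 or 3 libraries were chosen after seeing the data. Of 814 values of single genes under alternatives, 758 kept their side of the threshold, 21 gained a call and 35 lost it. No called value changed sign, but 76 of the 758 changed sign while uncalled on both sides. Over all genes, 3497 rose and 3123 fell in grafts as reported, against 2689 and 5029 with upper quartiles and 2308 and 6267 with library totals. In cold-ischemia grafts 2078 genes fell as reported, against 3371 and 4577 under those scalings and 1288 to 2568 with 1 library left out, and in shock grafts 2836 fell, against 4661 and 5761, and 1869 to 3112 with 1 library left out. The cause of the changes with scaling was not tested. Depth limits the members under 2 CPM, Psmg3, Psma8 and Psmb11, and 3 libraries a group limit the graft comparison.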
